A study of Mus musculus with 2 samples.

Results

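Prostaglandins are short-lived lipid signals made from arachidonic acid, and 10 genes of their synthesis, breakdown and reception were measured by RNA-seq in the optic nerve, taken whole, of mice at postnatal day 12. The 10 genes were chosen by their place in the pathway and by their control and cKO levels in these same libraries, with earlier results known, and each has 1 entry in both deposited tables, out of 23950 distinct gene symbols. They are the cyclooxygenases Ptgs1 and Ptgs2, the terminal synthases Ptgds, Ptges, Ptges2, Ptges3 and Ptgis, the receptors Ptgfr and Ptger4, and the breakdown enzyme Ptgr1.

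Each genotype has 1 library: the control is Hdac3 f/+; Olig1-cre, while the cKO is Hdac3 f/f; Olig1-cre, both of mixed strain. Both groups carry Olig1-cre, a recombinase expressed from the Olig1 gene of the oligodendrocyte lineage, and the control group carries 1 floxed Hdac3 allele (f), so it has 1 allele open to deletion. The study addresses the part of the histone deacetylase HDAC3 in the fates of oligodendrocytes and astrocytes. Hdac3 itself stood at 36.4 FPKM in control against 38.0 in cKO (log2 difference 0.06), so the gene-level value does not check the genotype labels, and every direction below refers to the libraries as labelled. Xist (21.9 and 23.7 FPKM) and the Y-linked gene Ddx3y (7.72 and 4.59 FPKM) were both present in each library, so neither came from 1 animal alone. How many animals were pooled is not stated in the labels. Like Ddx3y, the Y-linked genes Eif2s3y (17.1 and 8.66 FPKM), Uty (1.69 and 1.18) and Kdm5d (3.79 and 2.36) were lower in cKO. Whether the sex mix differs between the libraries was not tested, and such a difference could not be told apart from genotype.

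Values are FPKM, fragments per length of transcript and per total of fragments, so levels of different genes can be compared. Each comes with a deposited lower and upper bound. Neither group has a second library, so no difference has a replicate check or a test, and each describes these libraries. Differences are given as log2 of cKO FPKM plus 1 over control FPKM plus 1. Genes entered the comparison (below, tested) with a status of OK in both libraries and 1 FPKM or more in either. They were called higher or lower at a 2-fold difference or more with deposited intervals that did not overlap. Read numbers are not stated in the labels or headers. Among 420 genes listed above 0 and below 0.03 FPKM in both libraries, the most common ratio of control to cKO FPKM was 3.17, and 18.8% of them lay within 0.1 log2 units of it. Had those genes 1 fragment in each library, the cKO-labelled library would be that many times as deep. The half-width of the deposited interval, as a percent of its midpoint, had a median of 7.52% in control and 4.21% in cKO over 8686 genes at 5 FPKM or more in both.

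In the prostaglandin pathway, phospholipases free arachidonic acid from membranes, cyclooxygenases turn it into prostaglandin H2, and terminal synthases turn that into prostaglandins D2, E2, F2α, prostacyclin or thromboxane. These act on G protein-coupled receptors on nearby cells and are inactivated by dehydrogenases and reductases. Lipocalin-type prostaglandin D synthase, the product of Ptgds, is in addition a carrier of small lipophilic molecules and one of the abundant proteins of cerebrospinal fluid, and in the central nervous system it is known from the leptomeninges, oligodendrocytes and choroid plexus.

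The promoters shown are those of the 2 members called higher, Ptgds and Ptges, and of Ptgfr and Ptgr1, which fell just short of the 2-fold threshold. They are printed to show what sequence lies before these genes. Ptgs1, Ptgs2, Ptges2 and Ptger4 were also above control in cKO and have a window, which is not printed. Each is the 250 bases before the RefSeq transcription start (GRCm38.p6), written 5′ to 3′ on the gene's strand. Ptgds lies at chr2:25469750-25469999 (minus strand), Ptges at chr2:30903298-30903547 (minus), Ptgfr at chr3:151837529-151837778 (minus) and Ptgr1 at chr4:58987079-58987328 (minus). Capitals mark a match on either strand to TATAAA, which is a TATA box, to the CCAAT element, to the GC box GGGCGG, to the nuclear receptor half-site AGGTCA, to the AP-1 site TGACTCA or to the E-box CACGTG.
Ptgds: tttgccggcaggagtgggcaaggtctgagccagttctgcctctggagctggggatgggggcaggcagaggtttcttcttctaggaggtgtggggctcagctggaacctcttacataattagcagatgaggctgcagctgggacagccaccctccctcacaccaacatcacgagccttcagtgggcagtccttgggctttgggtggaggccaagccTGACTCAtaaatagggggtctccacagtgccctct
Ptges: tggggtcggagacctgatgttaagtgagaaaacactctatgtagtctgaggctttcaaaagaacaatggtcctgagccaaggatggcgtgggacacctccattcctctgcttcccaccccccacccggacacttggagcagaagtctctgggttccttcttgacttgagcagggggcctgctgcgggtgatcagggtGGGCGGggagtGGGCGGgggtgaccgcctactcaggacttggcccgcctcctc
Ptgfr: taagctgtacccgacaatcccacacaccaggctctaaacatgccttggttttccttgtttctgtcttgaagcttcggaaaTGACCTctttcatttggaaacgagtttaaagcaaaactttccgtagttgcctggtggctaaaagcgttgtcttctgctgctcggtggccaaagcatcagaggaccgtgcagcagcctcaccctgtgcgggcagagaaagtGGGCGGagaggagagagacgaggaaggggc
Ptgr1: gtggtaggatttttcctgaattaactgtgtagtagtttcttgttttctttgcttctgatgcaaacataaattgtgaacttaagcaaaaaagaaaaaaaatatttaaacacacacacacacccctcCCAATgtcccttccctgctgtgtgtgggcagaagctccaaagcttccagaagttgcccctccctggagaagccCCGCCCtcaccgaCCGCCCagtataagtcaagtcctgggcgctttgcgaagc

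The Ptgds window held 1 match, TGACTCA, which occurs in 4.46% of all 32851 RefSeq windows of this length. The Ptges window held 2 GC boxes. The Ptgfr window held 1 GC box and 1 nuclear receptor half-site (14.0% of all windows), and the Ptgr1 window held 2 GC boxes and 1 CCAAT (33.8% of all windows). The GC box was the most common match, in 6 of the 9 members' windows and in 32.7% of all windows. These 6 include the window of Ptges3, the only member lower in cKO. The window of Ptgs1, which was higher in cKO, held no match to any motif. No motif was shared by all 4 printed windows. TATAAA, found in 12.4% of all windows, was in 0 of the 9, and CACGTG (6.02% of all windows) was in 1, that of Ptges2. A match is a run of letters and not a binding site, and no match says only that these letters are not in the window. Ptgis was not matched to a promoter window.

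Ptgds dominated the pathway in both libraries. Its gene lies on chromosome 2 from 25322232 to 25325269 (mm9). It stood at 5876 FPKM in control against 16780 FPKM in cKO, 2.86 times as high (log2 difference 1.51). The deposited intervals, 4363 to 4432 and 12505 to 12575, lie far apart, and the bounds give a log2 difference of 1.496 to 1.527. Both FPKM values lie above their own intervals, so these bounds do not cover the error of the level. Taking the midpoints of the intervals in place of the FPKM gave the same log2 difference, 1.51. In whole nerve, here and for every gene that follows, a change in the number of cells of a type and a change in RNA per cell cannot be told apart.

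By level, Ptgds was the second most abundant symbol of each library. In control only Mbp, a myelin protein gene, was higher, at 15976 FPKM. In cKO only Snord2, a small nucleolar RNA, was listed higher, so Ptgds was rank 1 once small RNA symbols were left out. Gfap, an astrocyte filament gene at 3997 FPKM in control, carried a status of too many fragments in cKO and was listed at 0 there, so it has no place in that order. Among the listed genes and a few others picked by hand, the next in cKO were Apoe at 4420 FPKM and Eef1a1 at 2756, far below Ptgds. The order of all genes below Ptgds is not given here. Of the FPKM summed over symbols other than small RNAs, Ptgds made up 1.51% in control and 4.06% in cKO. Gfap entered these sums as listed, so at 0 in cKO, and the totals are not fully alike. Of the FPKM summed over the 10 prostaglandin genes, Ptgds made up 98.6% and 99.4%. The other 9 genes summed to 84.7 FPKM in control against 98.9 in cKO.

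**Figure D1:**
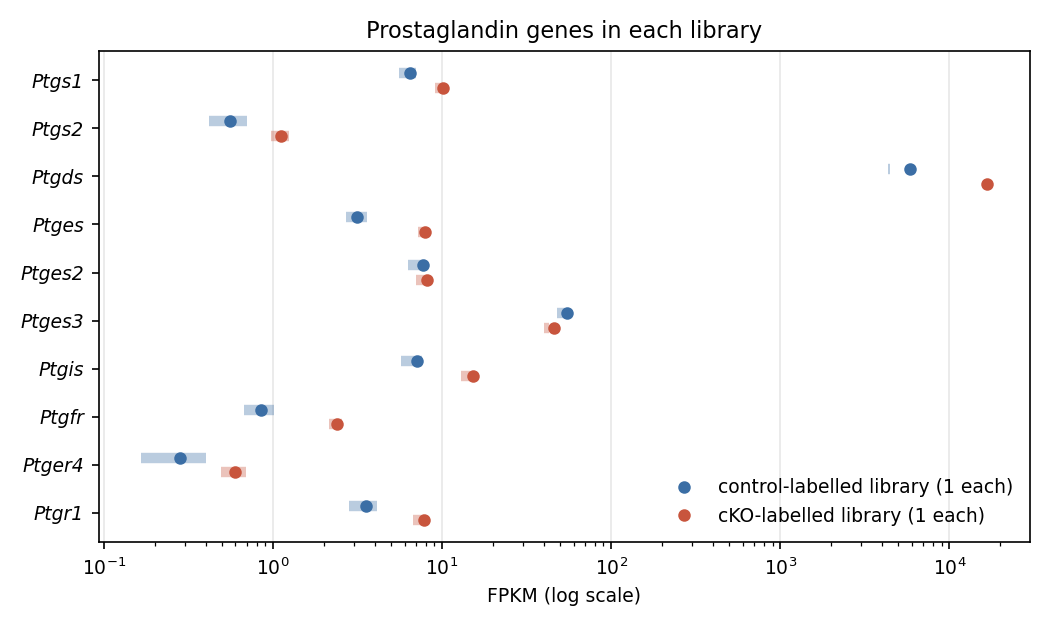
FPKM on a log axis of the 10 prostaglandin genes, with 1 point for each library and pale bars for the deposited intervals. The bars of Ptgds lie to the left of their points, from 4363 to 4432 in control and from 12505 to 12575 in cKO. Ptgds sits at 5876 and 16780 FPKM while the other 9 genes lie at or below 55.0 FPKM, and 9 of the 10 points of the cKO-labelled library lie to the right of control.

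The cyclooxygenases were orders of magnitude lower than Ptgds. Ptgs1, which encodes the constitutive enzyme COX-1, was at 6.48 FPKM in control (interval 5.56 to 7.05) against 10.2 in cKO (9.12 to 10.1), a log2 difference of 0.58. Ptgs2, which encodes the inducible enzyme COX-2, was at 0.561 FPKM in control (0.419 to 0.699) against 1.12 in cKO (0.974 to 1.24), a log2 difference of 0.44. The intervals of the libraries were apart for both genes, with cKO above control, and neither met the 2-fold rule. Ptgs1 was 11.6 times as high as Ptgs2 in control and 9.09 times in cKO, so the order of the pair was the same in each library.

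Prostaglandin E synthases differed among themselves. Ptges, the inducible microsomal enzyme, was at 3.16 FPKM in control (interval 2.70 to 3.59) against 7.92 in cKO (7.23 to 8.04), 2.51 times as high, and its log2 difference of 1.10 met the rule. The bounds give 0.84 to 1.29, which reaches below the threshold. Ptges2, a membrane-associated enzyme, was at 7.71 FPKM in control (6.33 to 8.09) against 8.20 in cKO (7.01 to 8.15). Its intervals overlapped, and its log2 difference of 0.08 turned to -0.21 when the libraries were scaled to the same sum. With small RNA symbols left out of that sum it was 0.0007. Ptges3, the cochaperone p23 that also carries a prostaglandin E synthase activity, was the most abundant of the 3 and the only one of the 10 members that was lower in cKO. It was at 55.0 FPKM in control against 45.6 in cKO (log2 -0.26), above its own interval in each library (47.7 to 53.0 and 40.1 to 43.0). A processed pseudogene of Ptges3 is annotated in the mouse genome and can share reads with it, so its level is uncertain.

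Ptgis, prostacyclin synthase, was at 7.12 FPKM in control (interval 5.71 to 7.61) against 15.1 in cKO (12.9 to 14.6), where the value lies above its own interval. It was 2.13 times as high in cKO, and with the pseudocount its log2 difference of 0.99 stopped just short of the rule. Ptgr1, a reductase that inactivates prostaglandins and leukotriene B4, was close behind. It was at 3.56 FPKM in control (2.82 to 4.10) against 7.78 in cKO (6.71 to 7.80), a log2 difference of 0.94.

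Both receptors were low, and with Ptgs2 they were the 3 members with the lowest levels in each library. Ptgfr, the receptor for prostaglandin F2α, was at 0.849 FPKM in control (interval 0.673 to 1.02) against 2.38 in cKO (2.14 to 2.56), 2.80 times as high, with a log2 difference of 0.87. Ptger4, the EP4 receptor for prostaglandin E2, was at 0.284 FPKM in control (0.166 to 0.402) against 0.595 in cKO (0.495 to 0.696). Ptger4 did not reach 1 FPKM in either library and was not tested (log2 difference 0.31). At such levels the pseudocount sets much of the difference: with 0.1 in its place, Ptgfr was at 1.39 and Ptger4 at 0.86.

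Over the members, 9 of 10 differences were above 0. Of the 9 tested, 2 were called higher (Ptgds and Ptges) and 0 lower. Over all 14154 genes tested, 4.73% were called higher and 4.51% lower. The members were chosen with these values known, so nothing is read from that count. The median log2 difference of the 9 was 0.87, against 0.12 over all genes tested, where 61.4% of differences were above 0. The nearest members on either side of the threshold were Ptges inside it and Ptgis, Ptgr1 and Ptgfr outside it. These 3 were called with a pseudocount of 0.1, which brought the members called higher to 5 (background 8.17% of genes called higher and 5.81% lower). After scaling to the same sum Ptgds alone was called (background 1.52% higher and 6.78% lower), at a log2 difference of 1.18. With small RNA symbols left out of that sum, Ptgds and Ptges were called (511 genes higher and 704 lower over all genes tested).

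**Figure D2:**
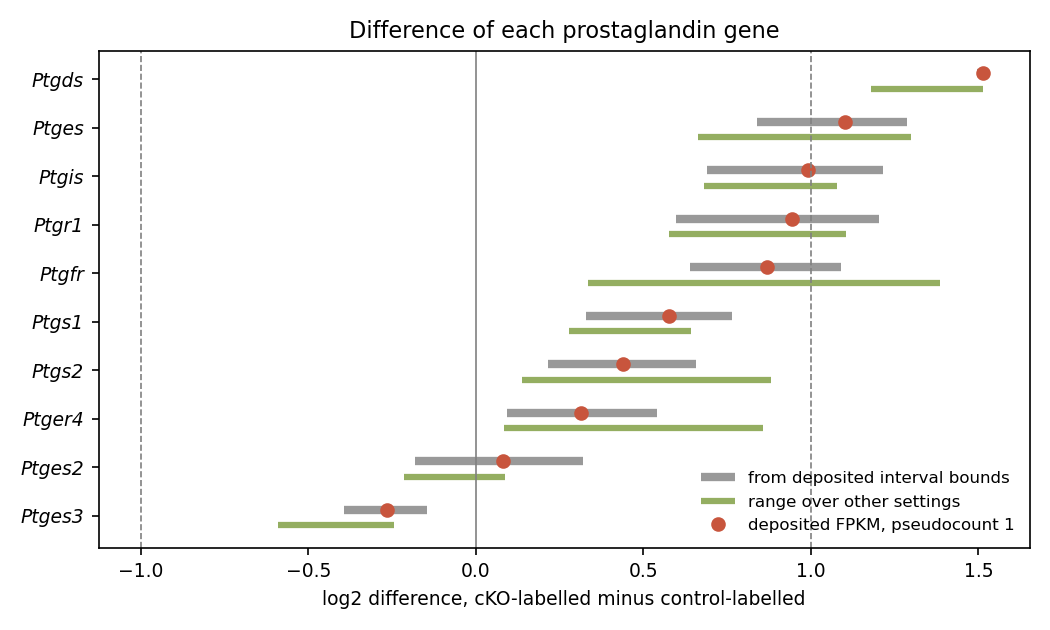
Log2 difference (cKO-labelled minus control-labelled) of each of the 10 genes, with grey bars for the values that the deposited interval bounds give and green bars for the range over 10 other settings. Dashed lines mark a 2-fold difference. Ptgds lies beyond the line in every setting shown (1.18 to 1.51), the bars of Ptges, Ptgis, Ptgr1 and Ptgfr cross it, and Ptges2 and Ptges3 lie near or below 0.

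Other genes of the prostanoid pathway were taken from 4 lists that hold 38 genes in the files, of which 29 were tested. Of these, 1 was called higher and 2 lower, with a median log2 difference of 0.34. The members, at a median of 0.87, were chosen with their values known, so the medians are only set side by side.

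The list of arachidonic acid supply also holds Anxa1, an inhibitor. Of its 10 tested genes, 1 was called higher and 1 lower, with 6 differences above 0 and 4 below. Faah, fatty acid amide hydrolase, which breaks down the endocannabinoid anandamide, was at 9.19 FPKM in control (interval 8.24 to 10.1) against 1.65 in cKO (1.448 to 1.796), a log2 difference of -1.95. Anxa1, annexin A1, known as an inhibitor of phospholipase A2, was at 24.8 FPKM in control against 53.9 in cKO (log2 1.09), above its own interval in each library. Mgll, monoacylglycerol lipase, the gene of the list with the highest mean FPKM, was at 74.7 and 50.9 FPKM (log2 -0.54). Pla2g4a, cytosolic phospholipase A2, was at 18.3 and 9.66 FPKM (log2 -0.86), with intervals that did not overlap, and did not meet the rule.

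Among the other synthases, 0 of 6 were called higher and 1 was called lower, while 5 of the 6 differences were above 0. Fam213b, which makes prostaglandin F2α and the related prostamide, was at 41.2 FPKM in control against 14.7 in cKO (log2 -1.42), so the most abundant of these 6 genes in control was lower in cKO while Ptgds was higher. Its intervals, 28.6 to 35.1 in control and 10.3 to 12.5 in cKO, both lie below the value given. Cbr1, a carbonyl reductase, was at 20.1 and 21.9 FPKM (log2 0.12), and Cbr3 was at 5.75 and 9.22 (log2 0.60). Hpgds, the haematopoietic prostaglandin D synthase of microglia and mast cells, was named after its values were seen. It was at 3.06 FPKM in control against 4.14 in cKO (log2 0.34), so almost all D synthase transcript by FPKM was Ptgds.

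Among transport and breakdown genes, 0 of 9 tested were called in either direction. Ptgr2, a 15-oxoprostaglandin reductase, was at 21.5 FPKM in control against 26.2 in cKO (log2 0.28). Zadh2, also known as prostaglandin reductase 3, was at 26.4 and 17.8 FPKM (log2 -0.54). Dhrs4, a carbonyl reductase, was at 10.7 and 20.5 FPKM (log2 0.87). Hpgd, the dehydrogenase that begins prostaglandin breakdown, and Slco2a1, the prostaglandin transporter, were named after their values were seen. Hpgd was at 2.22 and 2.87 FPKM with overlapping intervals, and Slco2a1 was at 1.45 and 3.10 FPKM (log2 0.75).

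Of 8 other genes of the receptor list in the files, 4 were tested and 0 were called. The 4 include Ptgfrn, which is not itself a prostanoid receptor. Ptgfrn, a protein that binds and restrains the prostaglandin F receptor, was at 12.7 FPKM in control against 21.7 in cKO (log2 0.73). Ptger1, the EP1 receptor, was at 6.65 and 7.69 FPKM with overlapping intervals. Ptgdr, the DP1 receptor for prostaglandin D2, was at 0.802 FPKM in control (upper bound 0.99995) against 2.12 in cKO (lower bound 1.84), a log2 difference of 0.79. Ptgdr2, the other D2 receptor, was at 0.0594 and 0.145 FPKM, was not tested and was named after its values were seen. Both receptors for the product of the most abundant synthase were thus among the low genes of the pathway.

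**Figure D3:**
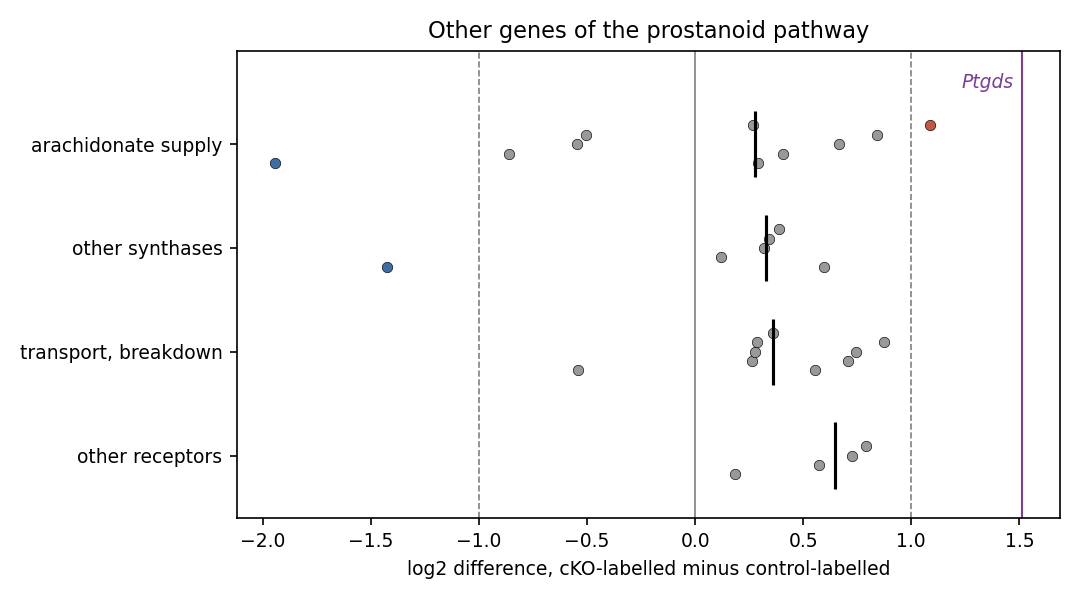
Log2 difference (cKO-labelled minus control-labelled) of tested pathway genes outside the 10 members, 1 point per gene, red where called higher and blue where called lower. Short black lines are list medians (0.28, 0.33, 0.36 and 0.65 from top to bottom), dashed lines mark 2-fold, and no gene shown reaches the Ptgds difference of 1.51.

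Markers of the cell types that make Ptgds moved in opposite directions. All 11 oligodendrocyte markers described here were called lower in cKO, at a median log2 difference of -2.58 (range -2.92 to -2.20). Their summed level was 7177 FPKM in control against 1258 in cKO, and none was at 0. Cnp, an enzyme of myelin, fell from 2187 to 398 FPKM, Mag, an adhesion protein of the myelin sheath, from 1317 to 205 FPKM, and Ermn, a cytoskeletal protein of oligodendrocytes, from 48.5 to 5.55 FPKM. Of 17 markers of meningeal fibroblasts and arachnoid, 14 were called higher and 0 lower, with a median of 1.26 and a range of 0.85 to 1.88. Their summed level was 2179 FPKM in control against 5128 in cKO, and none was at 0. Igf2, a growth factor of the meninges, was at 679 and 1665 FPKM (log2 1.29), Col1a2, a fibrillar collagen, at 335 and 704 (log2 1.07), and Slc22a6, an organic anion transporter, at 12.3 and 47.9 (log2 1.88). The difference of Ptgds lies inside the range of the meningeal markers, 3 of which differed more.

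Set against single genes, Ptgds FPKM was 2.69 times that of Cnp in control and 42.2 times in cKO. Against the meningeal gene Igf2 it was 8.66 times in control and 10.1 times in cKO. Against Col1a2 it was 17.6 and 23.8 times, and against Slc22a6, the meningeal marker with the largest difference, it was 476 times in control and 350 times in cKO. In each library Ptgds FPKM lies above its own interval and Cnp FPKM below its own, so the sizes of these ratios are uncertain. The part of meningeal or oligodendrocyte content in the Ptgds difference was not tested.

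Choroid plexus is also known to make Ptgds, and its markers were listed together with those of pigment epithelium, 7 genes in all, summing to 15.7 FPKM in control against 16.3 in cKO. None was at 0. Of the 4 tested, Kl was called higher (2.09 and 5.93 FPKM, log2 1.17). Best1 was at 0.482 and 1.36 FPKM (log2 0.67) and Tyr at 2.20 and 2.54 (log2 0.14), while Rlbp1, which astrocytes and Müller glia also express, was at 10.6 and 5.75 (log2 -0.79). The 3 not tested were Ttr at 0.107 and 0.574 FPKM, Folr1 at 0.131 and 0.135 and Rpe65 at 0.0221 and 0.00698. All 7 are given here, those outside the naming rule after their values were seen, and the part of these cells in the Ptgds level was not tested.

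Markers of the cells in which the lower members are known moved as follows. Microglia and macrophages are a known source of Ptgs1, and 2 of their 12 markers were called higher and 0 lower. Their median log2 difference was 0.72, with 3 of the 12 below 0, and their summed levels were 391 and 602 FPKM. The 2 were Mrc1 and Cd163 of perivascular and meningeal macrophages (Cd163 3.59 and 11.2 FPKM, log2 1.41), while C1qb was at 69.8 and 125 FPKM (log2 0.83) and C1qc at 66.9 and 120 (log2 0.83). Blood vessels are a known source of Ptgis. Of 8 endothelial markers 0 were called (median 0.30, summed levels 154 and 189 FPKM), with Cldn5 at 64.1 and 68.5 FPKM and Cdh5 at 20.9 and 38.5. Of 8 mural cell markers 1 was called higher (median 0.85, summed levels 281 and 512 FPKM). This was Acta2, at 11.9 and 26.95 FPKM (log2 1.11), while Vtn was at 160 and 312 (log2 0.96) and Rgs5 at 48.3 and 65.4 (log2 0.43). Of 8 astrocyte markers 2 were called higher (median 0.65, summed levels 1091 and 1846 FPKM), Gja1 at 237 and 529 FPKM (log2 1.15) and Gjb6 at 40.4 and 107 (log2 1.39), while Slc1a3 was at 288 and 481 (log2 0.74). The astrocyte marker with a difference below 0 was Aqp4, at 181 and 153 FPKM (log2 -0.24), with intervals that did not overlap (named after its values were seen). No marker of these 4 lists was at 0, and their part in the differences of the members was not tested.

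**Figure D4:**
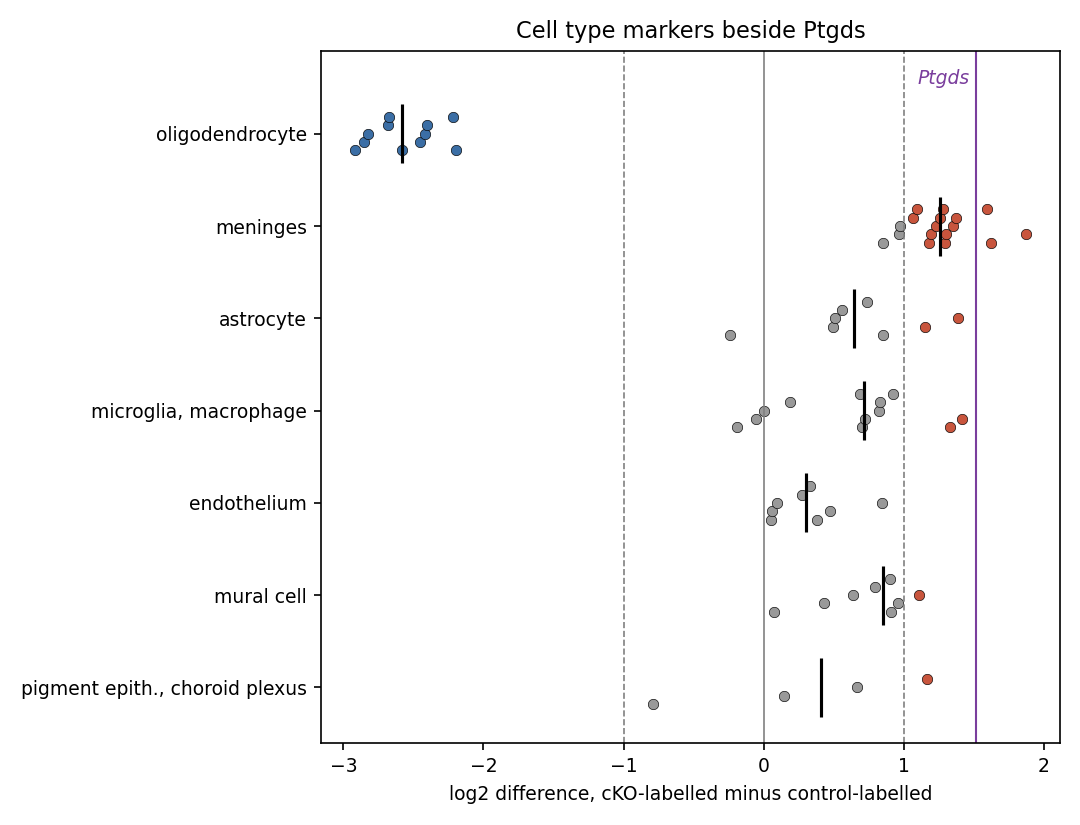
Log2 difference (cKO-labelled minus control-labelled) of tested cell type markers, 1 point per gene, red where called higher and blue where called lower, with a black line at each list's median. The Ptgds difference (purple line, 1.51) lies within the spread of the meningeal markers (0.85 to 1.88) and far from the oligodendrocyte markers (-2.92 to -2.20).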

How the data were processed

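RNA was taken from whole optic nerve, extracted with Trizol and made into Illumina TruSeq libraries, per the labels' protocols. The authors deposited FPKM per gene with interval bounds and a status, per the file headers. CASAVA, TopHat, Cufflinks and mm9 are named in the submitters' processing notes. Versions, annotation, strand use and read numbers are not stated there, so depth and counting error are known only through the deposited bounds. Of genes at 1 FPKM or more, 15.9% (control) and 33.0% (cKO) lie outside their own bounds.

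Tables were joined by symbol, start site and locus with Python 3.11.15 and pandas 2.3.3. The entry with the highest summed FPKM stood for each of 268 symbols with several. The difference used a pseudocount of 1 FPKM, a minimum of 1 FPKM in at least 1 library and no further scaling. The call rule was run on simulated data as a check of the code. Noise there came from the deposited intervals alone, without variation between animals or libraries. That run therefore does not give the error rate of the calls reported here. Starts are given 1-based. Members and 13 gene lists were chosen with earlier results of these data known. A gene of the oligodendrocyte list is not reported here and was left out of that list's values. Named genes are all members, each pathway list's called genes and its 3 highest by mean FPKM, each marker list's 2 highest and its largest difference, and genes at or above Ptgds; others are identified. Genes with near-identical copies share reads. Promoter windows are from RefSeq (GRCm38.p6). Alternatives were 11 planned settings of pseudocount, scaling, minimum, entries and threshold, and 1 (interval midpoints) added after the data were seen.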

Additional observations from a re-analysis of the deposited data

How the results depend on the processing

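Ptgds was called higher in each of 10 other settings, with a log2 difference of 1.18 to 1.51. Members called higher, 2 as reported, became 5 with a pseudocount of 0.1 or a 1.5-fold threshold, and 1 with a pseudocount of 5, after centring on the median or after scaling to the same sum. Members called lower were 0 in all 12 settings. Ptges lost its call with a pseudocount of 5 (log2 0.66), after centring (0.98) and at the same sum (0.81). Ptgis (1.08), Ptgfr (1.39) and Ptgr1 (1.10) gained one with a pseudocount of 0.1. Of the calls over all genes, 669 higher and 638 lower as reported, the number higher was 1156 with a pseudocount of 0.1, 282 with 5, 439 after centring, 215 at the same sum and 2262 at 1.5-fold. The number lower was 339 with a pseudocount of 5, 960 at the same sum and 1253 at 1.5-fold. Centring removes the median difference of 0.12. Scaling to the same sum, with or without small RNAs, used totals in which Gfap stood at 0 in cKO because of its status.

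Pathway genes outside the members called higher, 1 as reported, were 5 with a pseudocount of 0.1, 9 at 1.5-fold and 0 with a pseudocount of 5, after centring, at the same sum and at the same sum without small RNAs. Their median log2 difference of 0.34 was 0.45 with a pseudocount of 0.1, 0.19 with 5, 0.22 after centring and 0.10 at the same sum. Those called lower were 2 to 3 over all 12 settings. The rank of Ptgds in the cKO-labelled library was 1 without small RNA symbols and 2 with them. These changes follow from the arithmetic of the pseudocount, the scaling or the threshold. No paired analysis was possible because each group has 1 library. No replicate can be left out for the same reason. Levels below 1 FPKM (Ptger4, and Ptgs2 and Ptgfr in control) are less certain. Their interval half-widths were 41.7%, 25.0% and 20.4% of the midpoint in control. The control median was 7.52% over genes at 5 FPKM or more in both libraries.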

Other observations

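The leukotriene branch, which uses the same arachidonic acid, held genes that moved apart. Of 6 tested genes, Alox5, the lipoxygenase that begins leukotriene synthesis, was called lower at 12.6 FPKM in control (interval 11.0 to 13.6) against 3.73 in cKO (3.27 to 4.002), a log2 difference of -1.52. Its partner protein Alox5ap was called higher by a small margin at 8.13 and 17.3 FPKM (log2 1.002), with both values above their own intervals. Lta4h, which makes leukotriene B4, was at 17.5 and 28.1 FPKM (log2 0.65). The median of the 6 was 0.59.

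The protein made by Ptgds belongs to the lipocalins, carriers of small hydrophobic molecules. Of 7 other lipocalin genes tested, 4 were called higher and 0 lower, with a median log2 difference of 1.03. Rbp4, the retinol carrier, was at 17.7 FPKM in control against 41.8 in cKO (log2 1.197), and Lcn2, an acute phase protein, at 1.40 and 3.89 (log2 1.03). Apod, apolipoprotein D, the most abundant of them, was at 152 and 245 FPKM (log2 0.68). Ptgds was 38.6 times as high as Apod in control and 68.5 times in cKO. Orm2 (0.604 and 7.76 FPKM) and Orm3 (0.127 and 1.85 FPKM) are close copies that share reads, so their values are uncertain. Over all tested genes 4.73% were called higher.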
